A study of Rattus norvegicus with 4 samples.

Results

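The glial cell line-derived neurotrophic factor (GDNF) family comprises 4 ligands, Gdnf, Nrtn, Artn and Pspn, their glycolipid-anchored co-receptors of the Gfra family and the receptor tyrosine kinase Ret. Genes were chosen by symbol and not by a cutoff on their values, though earlier results of these data were known. Of the 9 listed, 8 (Gdnf, Nrtn, Artn, Pspn, Gfra2, Gfra3, Gfra4 and Ret) were found among the 32883 genes of the table. Gfra1 was not analysed here.

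Carotid bodies (CBs), the arterial oxygen sensors at the fork of the carotid artery, were taken from untreated Sprague Dawley rats at day 5 (neonates) and day 21 (adults), and the RNA was sequenced in 2 libraries per age, 4 in all. Each neonatal library pooled 6 pups and each adult library 3 rats by the design text of the deposit, whereas the study itself describes larger pools and more replicates. Adults came from the part of the litters left to grow, and the size of the pools differed with age. Libraries held between 36286191 and 39476110 estimated counts, so that 3 counts, taken as the floor of detection, amounted to between 0.0760 and 0.0827 CPM (counts scaled to a fixed library total), for counting error only. The comparison addressed which members of the family differed between the CB soon after birth and at weaning age. All RNA came from whole tissue, in which fewer cells of a type and less RNA per cell cannot be told apart.

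Each ligand binds as a dimer to a preferred co-receptor, Gdnf to Gfra1, Nrtn to Gfra2, Artn to Gfra3 and Pspn to Gfra4, and the complex then recruits and activates Ret. Signalling through Ret supports the survival and outgrowth of neural crest derivatives, among them sympathetic, sensory and enteric neurons. Artn and Gfra3 are known for guiding sympathetic axons along blood vessels. Glomus cells, the oxygen-sensing cells of the CB, descend from the neural crest and have been described as a source of Gdnf in the adult organ.

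In these libraries, the ligand Gdnf was lower and the co-receptor Gfra3 higher in neonates, whereas Ret and Gfra2 showed no age difference past the threshold. Gdnf was 2.52-fold higher in adults and Gfra3 was 1.53-fold higher in neonates. Gdnf passed the filter on low counts through the adult libraries alone, and its call was lost without either of them. Of the 8 genes, 5 were at 1 CPM or more in 2 libraries or more and entered the quasi-likelihood fit of edgeR, and these 2 had a p under 0.05 after Benjamini-Hochberg correction across all 13843 genes in the fit (here called). Among all of these genes, 62.3% were called, 31.2% higher and 31.1% lower in neonates. With library size in place of TMM scaling, 4 of the 5 were called, against 62.0% of all genes. The median log2 fold change (neonate minus adult) of the 5 was -0.0070, against -0.0029 for all genes tested.

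Of the promoters matched by symbol in a RefSeq table of the assembly GRCr8, a later build than that of the read mapping, a pair is shown, that of Gdnf, the member with the largest tested change, and that of Ret, the receptor shared by the ligands. Both runs hold the 250 bases before the annotated start, 5′ to 3′ on the strand of the gene. Capitals mark matches on either strand to the TATA box TATAAA, to the GC box GGGCGG and to TGACG, the core of the cAMP response element.
Gdnf, chr2:58621077-58621326, plus strand: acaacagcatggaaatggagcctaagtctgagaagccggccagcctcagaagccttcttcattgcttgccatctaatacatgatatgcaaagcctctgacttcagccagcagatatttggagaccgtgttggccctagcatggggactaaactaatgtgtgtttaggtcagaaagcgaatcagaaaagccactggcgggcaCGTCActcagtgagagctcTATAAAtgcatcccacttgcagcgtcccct
Ret, chr4:153040557-153040806, minus strand: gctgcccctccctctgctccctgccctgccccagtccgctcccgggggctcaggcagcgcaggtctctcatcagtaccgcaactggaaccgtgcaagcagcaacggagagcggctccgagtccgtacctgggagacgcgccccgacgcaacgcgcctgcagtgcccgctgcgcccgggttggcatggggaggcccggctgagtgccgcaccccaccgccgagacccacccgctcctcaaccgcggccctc

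In Gdnf the TATA box began 30 bases before the start and the match to TGACG, on the other strand, 49 bases before it. These letters were found in 12.9% and 18.2% of the 33469 promoters of the table, and GGGCGG, which neither window held, in 30.5%. The Ret window held none of the 3 motifs and was rich in G and C, at 72.8% against 49.6% in Gdnf and a median of 51.2% over all promoters. These matches describe letters and were not set against the expression values.

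Among the ligands, Gdnf (ENSRNOG00000012819), the founding member, had 0.887 and 0.805 CPM in the neonatal libraries and 2.54 and 2.54 CPM in the adult libraries. Both adult libraries lay far above both neonatal libraries, and the spread between libraries of an age was small beside this gap. The log2 fold change was -1.34, with a standard error (SE) of 0.35, a 95% interval from -2.13 to -0.54 and an edgeR adjusted p of 0.0090. Of both members called, only Gdnf was past 2-fold as well, as were 13.2% of all genes toward adults and 7.68% toward neonates.

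The counts behind Gdnf were low, at 35 and 31 reads in neonates and 96 and 92 in adults. Exact Poisson intervals (95%) of the summed counts ran from 0.655 to 1.08 CPM in neonates and from 2.19 to 2.93 CPM in adults. Gdnf entered the test through the adult libraries, since neither neonatal library reached 1 CPM. In the fit with no such filter its log2 fold change was -1.36 (edgeR adjusted p = 0.012). Without adult replicate 1 or adult replicate 2, the log2 fold change was -1.32 or -1.35 and the edgeR adjusted p 0.064 or 0.061, so that the size of the difference was kept and the call was not. In these fits 25.8% and 24.0% of all genes were called lower in neonates.

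Artn, the artemin ligand, was measured at 3.12 and 2.96 CPM in neonates and 2.41 and 2.78 CPM in adults. Its counts were low, at 123 and 114 reads in neonates and 91 and 101 in adults. Exact Poisson intervals (95%) of the summed counts overlapped, at 2.66 to 3.45 CPM in neonates and 2.24 to 2.99 CPM in adults. Both neonatal libraries lay above both adult libraries, by a gap smaller than the spread between the adult libraries. Its log2 fold change of 0.47 (SE 0.29, edgeR adjusted p = 0.18) did not pass, and the 95% interval, from -0.18 to 1.13, reached up to 2.19-fold higher in neonates.

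Pspn, encoding persephin, had 1.04 and 0.857 CPM in neonates and 0.371 and 0.524 CPM in adults, that is 41 and 33 reads against 14 and 19. The ages did not overlap, but only 1 library reached 1 CPM and Pspn was not among the genes tested. In a fit without a filter on low counts, which covered 19427 genes, its log2 fold change was 1.30 (SE 0.57), with an edgeR p of 0.046 before and 0.093 after adjustment. In that fit 24.2% of genes had an unadjusted p under 0.05 toward neonates, and after adjustment 44.0% were called, 21.2% higher and 22.8% lower.

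Nrtn, encoding neurturin, was close to the floor, with 9 reads in neonate replicate 1, 0 in neonate replicate 2, 12 in adult replicate 1 and 3 in adult replicate 2. The libraries of an age differed from each other more than the ages did, and a difference in Nrtn was not detectable at this depth. The 0 reads of neonate replicate 2 allowed up to 0.0779 CPM by the floor of 3 counts.

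**Figure D1:**
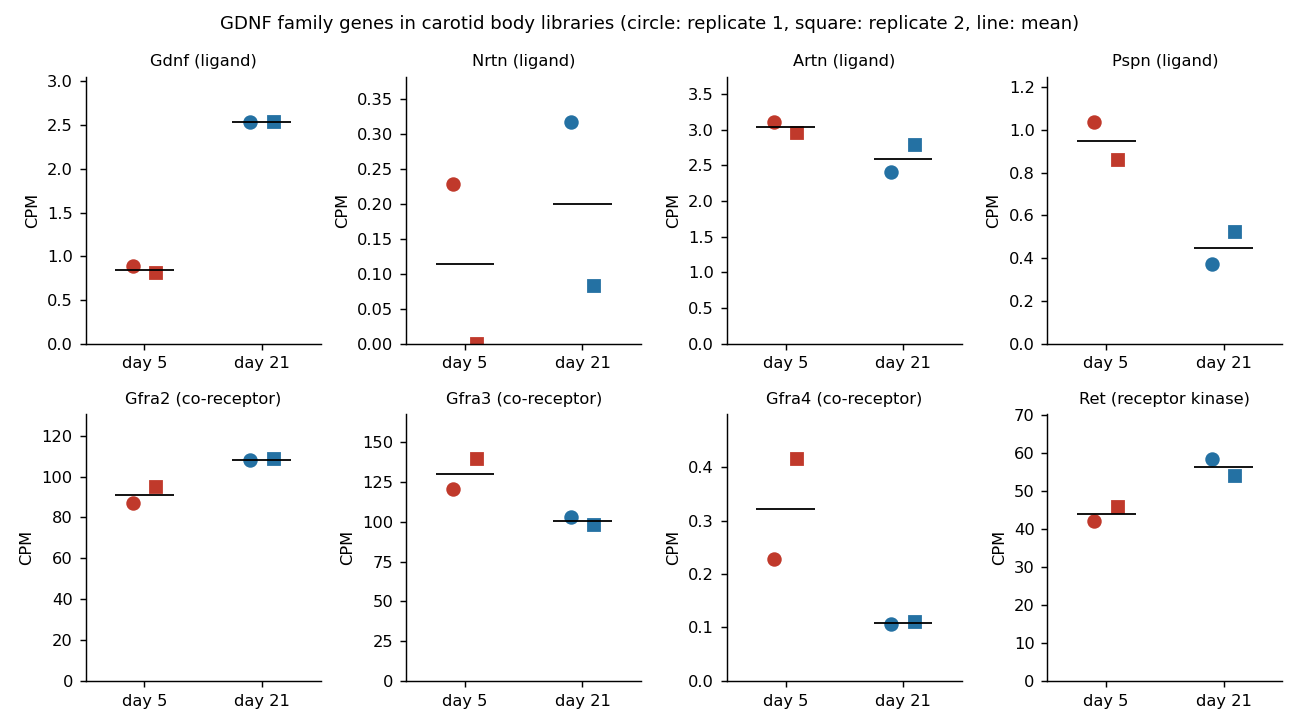
Level of each GDNF family gene in CPM (vertical axis, from 0 and on its own scale in each panel) in the libraries of day 5 and day 21, with circles for replicate 1, squares for replicate 2 and a line at the mean of the age. Gdnf was at 0.887 and 0.805 CPM in neonates and at 2.54 and 2.54 CPM in adults, Gfra3 was higher in both neonatal libraries, and Nrtn overlapped between ages.

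Among the co-receptors, Gfra3 (ENSRNOG00000020309), the co-receptor for Artn, had 4769 and 5374 reads in neonates and 3886 and 3555 in adults, or 120.8 and 139.6 CPM against 102.9 and 98.0 CPM. Both neonatal libraries were higher than both adult libraries, although the neonatal libraries also differed from each other by 1.16-fold. The log2 fold change was 0.62 (SE 0.084, 95% interval 0.43 to 0.81, edgeR adjusted p = 0.00024). Gfra3 was called higher in each of the 13 alternative analyses, with log2 fold changes from 0.37 to 0.70. In these analyses between 18.7% and 32.9% of all genes were called higher in neonates.

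Gfra2 (ENSRNOG00000014010), the co-receptor for Nrtn, was detected at 86.8 and 95.1 CPM in neonates and at 108.0 and 108.6 CPM in adults. Adults were thus higher in CPM, but CPM of a library depend on what else was sequenced. After TMM scaling, which aligns the bulk of genes between libraries, neonates were at 96.5 and 101.9 CPM and adults at 100.1 and 99.3 CPM, and the ages overlapped. The log2 fold change was -0.0070 (SE 0.076, edgeR adjusted p = 0.94), and its 95% interval, from -0.18 to 0.16, held no change larger than 1.13-fold in either direction.

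Gfra4, the co-receptor for Pspn, was barely expressed, with 9 and 16 reads in neonates and 4 and 4 in adults. Neonates were higher in both libraries, by a few reads. The fit without a filter gave a log2 fold change of 1.75 with an SE of 1.04 (edgeR adjusted p = 0.22), and the Poisson intervals of the summed counts, 0.207 to 0.473 CPM in neonates and 0.0466 to 0.213 CPM in adults, overlapped.

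Ret (ENSRNOG00000014751), the kinase through which the co-receptors signal, had 1660 and 1762 reads in neonates and 2212 and 1960 in adults, or 42.1 and 45.8 CPM against 58.6 and 54.0 CPM. TMM-scaled values were 46.7 and 49.0 CPM in neonates and 54.3 and 49.4 CPM in adults, so that neonate replicate 2 and adult replicate 2 nearly coincided. The log2 fold change of -0.11 (SE 0.094, 95% interval -0.33 to 0.10, edgeR adjusted p = 0.32) did not pass. By this interval adult Ret lay between 0.933-fold and 1.26-fold its neonatal level.

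Over the 5 genes tested, TMM-scaled CPM did not overlap between ages in 4, with Gfra3 and Artn higher and Gdnf and Ret lower in neonates. Non-overlap was common, with 41.3% of all genes tested higher and 41.7% lower in this sense. In CPM without TMM, 4 of the 8 members were higher in both neonatal libraries, 3 were lower and Nrtn overlapped, against 24.2% higher and 46.0% lower among the 19427 genes with any count.

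The scaling between libraries decided the calls of Ret and Gfra2. With library size in place of TMM, the median over all genes of the log2 difference moved to -0.25. Ret was then at -0.36 (edgeR adjusted p = 0.012) and Gfra2 at -0.25 (edgeR adjusted p = 0.028), both called lower in neonates. At this scaling 62.0% of all genes were called, 43.3% lower and 18.7% higher. Relative to the median of all genes, Ret was at -0.11 and Gfra2 at -0.0030 with library size, against -0.11 and -0.0041 with TMM. Gdnf (-1.58) and Gfra3 (0.37) kept their direction and call with library size, with edgeR adjusted p of 0.0039 and 0.0072.

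**Figure D2:**
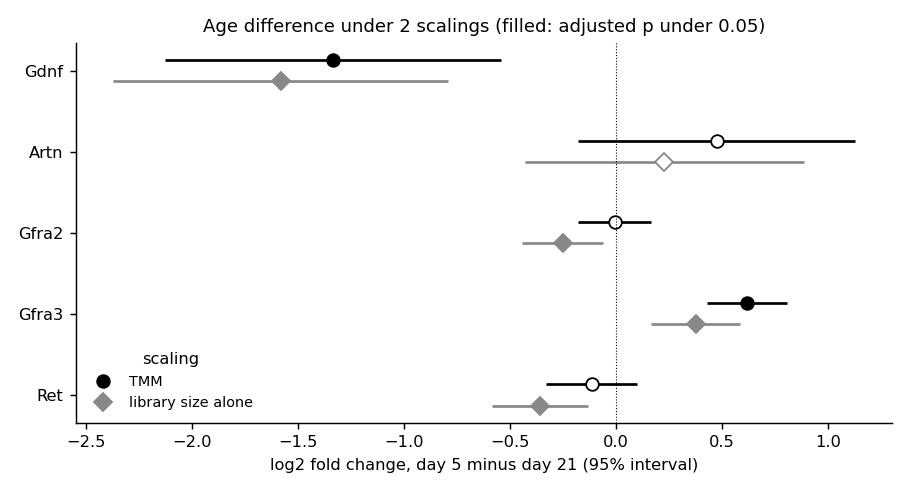
Log2 fold change, day 5 minus day 21, of the 5 genes tested (horizontal axis) with its 95% interval, under TMM scaling (black circles) and library size alone (grey diamonds), with filled symbols at an adjusted p under 0.05. Gdnf and Gfra3 were filled under both scalings, at -1.34 and 0.62 with TMM, whereas Gfra2 and Ret were filled with library size alone.

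Ratios of counts within a library do not depend on the scaling between libraries, and the lengths of the transcripts cancel when a ratio is compared between ages. The ratio of Gfra3 to Ret was 2.87 and 3.05 in neonates and 1.76 and 1.81 in adults. Both neonatal libraries were thus higher, and the mean log2 ratio differed by 0.73 between ages, or 1.66-fold. The ratio of Gfra3 to Gfra2, chosen after the data had been seen because Gfra1 was not analysed, went the same way, with 1.39 and 1.47 in neonates and 0.953 and 0.902 in adults.

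In contrast, the ratio of Gfra2 to Ret was 2.06 and 2.08 in neonates and 1.84 and 2.01 in adults, a difference of 0.11 in log2. Neonate libraries were higher here as well, but by less than the gap between the adult libraries. An exact two-sided permutation test gave p = 0.333 for each of the 3 ratios, the smallest that 2 libraries against 2 allow, and Benjamini-Hochberg adjustment over the 3 leaves it at 0.333.

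**Figure D3:**
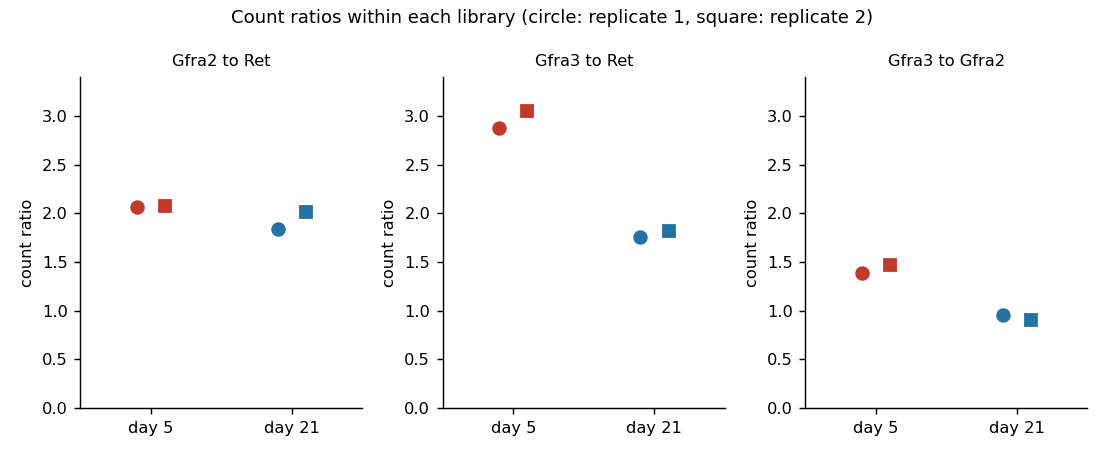
Ratio of counts within each library (vertical axis, no unit, from 0) for Gfra2 to Ret, Gfra3 to Ret and Gfra3 to Gfra2 at day 5 and day 21, with circles for replicate 1 and squares for replicate 2. Gfra3 to Ret lay at 2.87 and 3.05 in neonates and at 1.76 and 1.81 in adults, and Gfra2 to Ret between 1.84 and 2.08 in all libraries.

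Markers of the cell types that could carry these genes were read in the same libraries. For the counts below, 31.2% of all genes tested were called higher and 31.1% lower in neonates. Of 17 glomus cell markers, all were tested, 6 were higher and 6 lower in neonates, and their summed level ran from 9484 to 10284 CPM in neonates and from 12158 to 14899 CPM in adults. After TMM scaling the sums overlapped, at 11432 and 10165 CPM in neonates and 13814 and 11117 CPM in adults. Chga in this list was at 1552 and 740.1 CPM in neonates, against 848.0 and 723.1 CPM in adults. It was highest in neonate replicate 1, the library with most Pth, and sums without it were not formed. Th and Ddc, enzymes of catecholamine synthesis, were at 781.0 CPM or more in every library. These listed glomus cell markers were thus present throughout, and their cell of origin was not tested. Th was lower in neonates (-0.45) and Ddc was not called (0.18). Of 11 sympathetic neuron markers, 10 were higher in neonates and 1 was not called, with sums of 2087 to 2401 CPM against 1224 to 1533 CPM. Among them Npy had 152.1 and 116.4 CPM in neonates and 41.5 and 38.2 CPM in adults, and Slc6a2, the noradrenaline transporter, was at 1.65 in log2. Of 12 markers of sustentacular and Schwann cells, 4 were higher and 4 lower. Their sums were 1805 and 3154 CPM in the neonatal libraries and 3116 and 3436 CPM in the adult libraries. Of the 4 higher, Fabp7 passed the filter on low counts through the neonatal libraries alone. Col1a1 (-0.13) and Col3a1 (-0.30), first among the fibroblast markers, were not called. Of the 6 fibroblast markers tested, 3 were lower in neonates and 1 was higher. Their sums were 11938 and 14787 CPM in neonates and 18260 and 20496 CPM in adults. After TMM scaling these came closer, at 13271 and 15850 CPM against 16930 and 18740 CPM. Of 4 macrophage and lymphocyte markers tested, 3 were lower in neonates, Ptprc (2.61-fold higher in adults) among them, and Cd68 (0.32) was not called. Their sums were 29.2 and 35.4 CPM against 70.5 and 76.6 CPM. After TMM scaling these were 32.5 and 37.9 CPM against 65.3 and 70.1 CPM. Of 6 smooth muscle markers, 3 were lower and 1 higher. Of the 3 lower, Myocd passed the filter on low counts through the adult libraries alone. Most called genes of these 3 lists were thus higher in adults, as was Gdnf, and their part in its difference was not tested. All 5 proliferation genes were higher in neonates. Parathyroid genes, led by Pth, reached a sum of 1616 CPM in the first neonatal library, 197.5 CPM in the second and at most 0.0551 CPM in adults.

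Gfra3 moved in the same direction as the sympathetic neuron markers. As a share of their summed level it was 5.03% and 6.69% in neonates and 6.71% and 8.01% in adults. Neonate replicate 2 and adult replicate 1 thus nearly coincided on this base. As a share of the sustentacular and Schwann cell markers it was 6.69% and 4.42% in neonates and 3.30% and 2.85% in adults, and as a share of the glomus cell markers 1.17% and 1.47% against 0.690% and 0.806%. As a share of the fibroblast markers it was 1.01% and 0.944% in neonates and 0.563% and 0.478% in adults. The age difference thus depended on the cell type taken as the base, and the part of cell composition in the Gfra3 difference was not tested. Ret was at 0.409% and 0.483% of the glomus cell markers in neonates and at 0.393% and 0.444% in adults. The ages overlapped here, with Chga, highest in neonate replicate 1, among the markers summed. Gdnf stood at 0.00862% and 0.00849% of the same markers in neonates and at 0.0171% and 0.0209% in adults, higher in both adult libraries. Without neonate replicate 1, the library with most Pth, the log2 fold change of Gfra3 was 0.70 and that of Gdnf -1.43.

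The genes with the most similar course over the 4 libraries were named by the distance between log2 CPM centred on each gene's mean. For Gdnf these were Edc3, Ank2 and Slc2a12, with distances of 0.017, 0.025 and 0.027. For Gfra3 they were Btf3l4, Hnrnpu and Ccdc102a (0.0098, 0.018 and 0.024), and for Ret they were Anxa11, Snap25 and Rnf167 (0.013, 0.014 and 0.015). Artn lay closest to Rtel1, Lpin3 and Klhl5 (0.024, 0.028 and 0.043) and Gfra2 to Ppp3ca, Rps6kb1 and Snx11 (each 0.015). With only 4 libraries such likeness is common, and within a distance of 0.1 there were 20 genes for Gdnf, 79 for Artn, 116 for Gfra3, 228 for Ret and 376 for Gfra2.

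Around the family, 55 further genes of GDNF and Ret signalling were read from lists made by role, of which 54 were found and 45 tested. In neonates 11 of these were higher and 16 lower at an adjusted p under 0.05, which is 24.4% and 35.6% of those tested, against 31.2% and 31.1% of all genes. With library size alone 7 were higher and 26 lower, against 18.7% and 43.3% of all genes. Their median log2 fold change was -0.18. Of the 27 calls, some were lost when a library was left out, and how often this befell all called genes was not computed.

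Of the other receptors and sorting proteins, all 3 tested were lower in neonates, as were 31.1% of all genes. Ncam1, a cell adhesion molecule that serves as an alternative receptor for Gdnf, had 49.2 and 54.4 CPM in neonates and 159.7 and 135.8 CPM in adults. It was 2.41-fold higher in adults, with a log2 fold change of -1.27 (edgeR adjusted p = 1.5e-05). Sort1, a sorting receptor, was at -1.16 and Sdc3, a heparan sulphate proteoglycan, at -0.39. Gfral, the receptor for Gdf15 and a distant relative of the co-receptors, had 0 and 1 reads in neonates and 10 and 8 in adults, and Gdf15 had 11 and 25 against 4 and 12. Neither was tested, and Sorl1 was not analysed here.

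Of the 22 adaptors and proximal kinase partners of Ret tested, 6 were higher, 8 lower and 8 not called, with a median of 0.0071. Of all genes, 31.2% were higher and 31.1% lower. With library size alone 4 of the 22 were higher and 11 lower, against 18.7% and 43.3% of all genes. Gab2, a docking protein upstream of PI3K, had 8.92 and 8.23 CPM in neonates and 26.9 and 28.4 CPM in adults, or -1.44 in log2 (edgeR adjusted p = 2.5e-05). Cd2ap, a scaffold protein, was at -1.30 and Pik3r1, the regulatory subunit of PI3K, at -1.04. Toward neonates, the adaptors Grb10 (0.86), Frs3 (0.84) and Dok5 (1.33) were called. Dok5 was at 2.25 and 1.30 CPM in neonates and 0.768 and 0.909 CPM in adults. It thus passed the filter on low counts through the neonatal libraries alone. Its edgeR adjusted p was 0.022, and 0.12 without neonate replicate 1, 0.13 without adult replicate 1 and 0.083 without adult replicate 2.

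Of 10 feedback inhibitors of receptor kinase signalling, 1 was higher, 3 were lower and 6 were not called, against 62.3% of all genes called. With library size alone 7 of the 10 were called, all lower in neonates, against 43.3% of all genes. Spred1 (-1.03) and Spred2 (-1.01), inhibitors of the Ras pathway, were lower in neonates, and Ptpra, a receptor phosphatase, was at -0.20. Spry2, a sprouty inhibitor, was higher at 0.45, but at 0.21 and not called with library size (edgeR adjusted p = 0.19). Spry1, Spry4, Spred3, Dusp6, Ptprf and Lrig1 were not called with TMM, between -0.49 and 0.18, and of these Spry1, Spry4, Dusp6 and Lrig1 were called with library size. Without adult replicate 2 the calls of Spred2 (edgeR adjusted p = 0.092) and Spry2 (0.082) were lost, that of Spry2 also without neonate replicate 2 (0.054). Ptpra was not called when any of the 4 libraries was left out, with edgeR adjusted p between 0.061 and 0.12.

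Of 4 transcription factors downstream of Ret, 1 was higher and 1 lower, against 31.2% and 31.1% of all genes. With library size alone 1 was higher and 3 lower, against 18.7% and 43.3%. Etv4 was higher in neonates at 1.08 and Etv1 lower at -0.71, while Etv5 (-0.17) and Egr1 (-0.14) were not called and Fosl1 and Myb, at 20 reads or fewer in each library, were not tested. Of the factors that act on Ret itself, 3 of 6 tested were higher in neonates, against 31.2% of all genes. These were Gata3 (1.51), Rara (0.83) and Sox10 (0.31). Gata3 was at 11.5 and 5.35 CPM in neonates and 3.92 and 3.14 CPM in adults, highest in the library with most Pth. Without that library, neonate replicate 1, its fold was 1.76 in place of 2.84 (edgeR adjusted p = 0.025). Sox10 lost its call without neonate replicate 1 (edgeR adjusted p = 0.091), without adult replicate 1 (0.066) and with library size (0.061 in log2, edgeR adjusted p = 0.57). Hoxb5 (0.59) and Isl1 (-0.18) were not called, and Pax3 and Nkx2-1 had at most 1 read in a library. Gata3 also stood in the glomus cell list and Sox10 in that of sustentacular and Schwann cells.

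**Figure D4:**
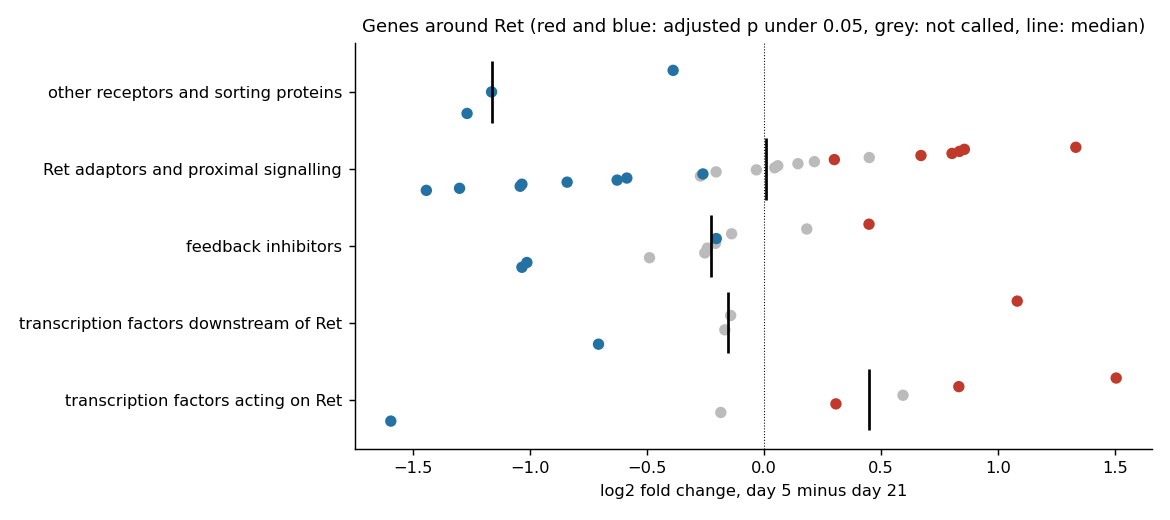
Log2 fold change, day 5 minus day 21 (horizontal axis), of each gene tested in the 5 lists around Ret, with red for genes called higher and blue for genes called lower in neonates, grey for genes not called and a black line at the median of the list. The other receptors and sorting proteins lay to the left, between -1.27 and -0.39, and the adaptors spread from -1.44 to 1.33. The adaptor at 1.33 was Dok5, which passed the filter on low counts through the neonatal libraries alone.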

How the data were processed

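RNA of pooled CBs was sequenced as poly A+ libraries. For the table of estimated counts per gene that they deposited, the authors removed adapters and poor reads and mapped to the rat reference Rnor_6.0, naming STAR and, in the submitters' processing notes, Salmon 1.5.2. The values were not normalized, and none of the members found had a fractional one. Whether counting used strand is not given in the sources used here.

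Here the expected counts were rounded, and 636 genes annotated as other than protein-coding in a GRCr8 table were removed by symbol. A gene was tested if 2 libraries or more had 1 CPM or more. Ages were compared in edgeR 4.0.16 (R 4.3.3) by the quasi-likelihood test with TMM factors and no covariates, and p-values were adjusted by Benjamini-Hochberg over all genes tested, with 0.05 as the threshold. Alternatives were DESeq2 1.42.0, limma-voom (limma 3.58.1), other scalings and filters, a replicate block and each library left out. On simulated data of 13843 genes for this comparison, 200 of 200 genes changed by 2 in log2 were recovered and 5 others were called. There every gene had the same spread between libraries, and only these 200 differed, up and down in equal number. In the real libraries 62.3% of genes were called, and the members called differed by less than 2 in log2. The simulation thus does not show how changes of their size are recovered. The labels call the libraries biological replicates without naming litters or animals, so p-values measure the spread between these pools. Poisson intervals and floors cover counting error only.

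Members and lists were chosen with earlier results of these data known, and the ratio to Gfra2 and the motifs after the data had been seen. The text names every member and, per signalling list, up to 3 called genes of largest change in each direction (and the whole list where fewer passed in a direction). It also names up to 2 genes per marker list, the first tested in listed order, with Chga, Fabp7 and Myocd besides. Named too are the 3 genes nearest in pattern to each member tested. A result that this rule would name is not reported here.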

Additional observations from a re-analysis of the deposited data

How the results depend on the processing

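With library size alone, 2587 genes were called higher in neonates, and 30.1% of all calls were higher, against 4325 genes and 50.1% with TMM. Among the GDNF family genes, library size gave 4 calls in place of 2, of which 3 were lower in neonates, and among the pathway genes 7 higher and 26 lower. A mean of at least 5 CPM removed Gdnf and Artn. Of Gfra2, Gfra3 and Ret, which remained, only Gfra3 was called, that is 1 call in the family and 0 lower in neonates. In that fit 65.4% of all genes were called, 32.6% higher and 32.8% lower in neonates. With each library left out in turn, the calls ran from 6783 to 8366 over all genes (3466 to 4200 higher, 3317 to 4166 lower), from 1 to 2 in the family (0 to 1 lower, and 1 higher throughout) and from 19 to 29 in the pathway (7 to 10 higher, 12 to 20 lower). Leaving out a library leaves an age with 1 sample, whose spread is assumed to be that of the other age. Gfra2, never called with TMM, changed sign without neonate replicate 1 (0.033, range -0.039 to 0.033). The log2 fold change of Gdnf ran from -1.43 to -1.23 and that of Gfra3 from 0.55 to 0.70. Log2 ratios differed between ages by 0.043 to 0.17 for Gfra2 to Ret, 0.69 to 0.77 for Gfra3 to Ret and 0.58 to 0.66 for Gfra3 to Gfra2. No label ties libraries of the same replicate number (correlation of the deviations of same-numbered libraries -0.016 across genes). With a replicate block, 9121 genes were called against 8625 without, and Gdnf (-1.34) and Gfra3 (0.62) were called as before. Ratios with Gfra1 were not run. Depth limits Nrtn, Gfra4, Pspn, Gdnf and Artn, which rest on at most 123 reads in a library.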
